A study of Mus musculus with 59 samples.

Results

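Of the 18088 genes listed for mouse prefrontal cortex, 36 mark the cells of blood vessels: 26 genes of endothelial cells, which line the vessel, and 10 genes of mural cells, the pericytes and smooth muscle cells that wrap it. They were taken by symbol from a list of vascular markers, a rule that uses no measured value although earlier results of these data were known, and all 36 passed the filter on low values that left 16599 genes to test. Messenger RNA was sequenced from 59 C57BL/6J mice on postnatal day 25, after vehicle or drug had reached the pups through the dam's milk from day 3 to day 24, about 3 weeks. Heterozygous carriers of a Shank3 knock-in (KI HT, here HT) were set against wild-type mice (WT), and each genotype received lithium, fluoxetine or vehicle. The arms were HT lithium, HT fluoxetine and HT vehicle with 10 mice each, WT lithium with 9, and WT fluoxetine and WT vehicle with 10 each, in 12 groups of 5 females or 5 males, except 4 WT lithium females. Shank3 encodes a scaffold protein of excitatory synapses, lithium is a mood stabilizer and fluoxetine blocks serotonin reuptake. The labels name no litters, and each pup enters the tests as a sample of its own although drug came through a dam, so p-values measure only the spread between pups.

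Brain endothelial cells form the blood-brain barrier. Tight junctions seal the gaps between them, transporters carry nutrients in and foreign compounds out, and receptors for VEGF, angiopoietins, apelin and TGF-beta family ligands control their growth and rest. Mural cells are recruited by PDGF-B, which endothelial cells release, and Notch signals between neighbouring cells maintain them. The vessels of the rodent cortex still branch and mature in the weeks after birth, the period in which these pups received drug.

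The 6 promoters printed here belong to members that passed the test with lithium: the glucose transporter gene Slc2a1, higher in both genotypes, the receptor genes Tie1, Eng and Flt1, higher in HT mice, and the receptor gene Tek and the membrane protein gene Myct1, lower in WT mice. Each run is 300 bases of RefSeq sequence (GRCm38.p6), 250 before and 50 after an annotated start, read 5′ to 3′ on the gene's strand. They lie at chr4:119108495-119108794 (Slc2a1, plus strand), chr4:94739039-94739338 (Tek, plus strand), chr4:118489800-118490099 (Tie1, minus strand), chr2:32646345-32646644 (Eng, plus strand), chr5:147725962-147726261 (Flt1, minus strand) and chr10:5593478-5593777 (Myct1, plus strand). Capitals mark CAGGAA, a form of the core that ETS factors such as Erg bind, or its reverse complement TTCCTG.
Slc2a1: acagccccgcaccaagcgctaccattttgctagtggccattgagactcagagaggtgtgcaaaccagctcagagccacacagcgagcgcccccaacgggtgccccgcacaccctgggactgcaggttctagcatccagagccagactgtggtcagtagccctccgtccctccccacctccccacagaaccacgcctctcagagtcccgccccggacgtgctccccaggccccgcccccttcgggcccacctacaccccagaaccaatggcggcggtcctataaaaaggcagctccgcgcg
Tek: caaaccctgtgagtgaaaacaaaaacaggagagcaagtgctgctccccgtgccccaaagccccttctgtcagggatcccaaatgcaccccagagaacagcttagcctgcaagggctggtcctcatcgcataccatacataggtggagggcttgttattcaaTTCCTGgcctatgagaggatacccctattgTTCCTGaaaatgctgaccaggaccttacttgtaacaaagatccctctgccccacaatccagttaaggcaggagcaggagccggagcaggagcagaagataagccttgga
Tie1: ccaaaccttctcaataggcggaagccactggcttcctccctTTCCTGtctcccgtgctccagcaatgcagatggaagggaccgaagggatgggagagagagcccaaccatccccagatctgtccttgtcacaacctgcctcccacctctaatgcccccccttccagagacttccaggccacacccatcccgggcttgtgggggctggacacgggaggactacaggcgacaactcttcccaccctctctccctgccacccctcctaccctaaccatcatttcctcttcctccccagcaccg
Eng: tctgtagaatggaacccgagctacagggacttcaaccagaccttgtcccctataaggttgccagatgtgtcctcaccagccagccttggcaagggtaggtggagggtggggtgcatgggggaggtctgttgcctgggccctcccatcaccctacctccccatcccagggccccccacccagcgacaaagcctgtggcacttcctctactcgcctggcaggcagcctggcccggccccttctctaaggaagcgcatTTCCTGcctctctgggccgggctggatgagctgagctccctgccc
Flt1: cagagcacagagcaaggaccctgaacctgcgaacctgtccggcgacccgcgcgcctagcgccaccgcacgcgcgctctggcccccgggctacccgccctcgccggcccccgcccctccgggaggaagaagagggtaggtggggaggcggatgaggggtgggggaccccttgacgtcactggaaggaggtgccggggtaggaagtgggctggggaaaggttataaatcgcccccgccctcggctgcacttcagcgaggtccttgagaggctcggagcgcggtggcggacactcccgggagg
Myct1: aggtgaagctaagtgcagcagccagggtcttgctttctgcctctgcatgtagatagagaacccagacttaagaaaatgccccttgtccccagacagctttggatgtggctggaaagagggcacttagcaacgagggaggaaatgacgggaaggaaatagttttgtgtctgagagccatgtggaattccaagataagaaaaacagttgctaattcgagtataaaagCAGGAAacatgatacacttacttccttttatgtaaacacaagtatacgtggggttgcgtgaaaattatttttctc

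CAGGAA was searched on both strands and was present in the promoters of 10 of the 24 members that have one in the table (41.7%) and in 30.6% of the 32851 promoters of the same length. The run of Tek holds it in 2 places, those of Tie1, Eng and Myct1 in 1 place each, and those of Slc2a1 and Flt1 in none. A second ETS form, CCGGAA, was present in 2 of the 24 member promoters and in 14.9% of all promoters, and in none of the printed runs. The KLF motif CACCC was present in 17 of the 24 (70.8%) and in 57.5% of all. The SOX motif ACAANG was present in 9 of the 24 (37.5%) and in 41.2% of all, and the TCF/LEF motif CTTTGA in 4 of the 24 (16.7%) and in 16.0% of all. Member promoters had a median GC content of 56.2%, against 52.7% for all promoters. A match is only a run of letters in the window.

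Levels differed widely between members. Per kilobase of the longest annotated transcript in WT vehicle mice, the pericyte genes Rgs5, a regulator of G-protein signalling, and Vtn, which encodes vitronectin, were at the top with 1064 ± 150.1 and 1001 ± 115 normalized counts per kilobase (SD, n = 10). The endothelial genes Itm2a, Ly6c1, Slc2a1 and Cldn5 followed at 984 ± 125, 912 ± 167, 909.8 ± 113 and 804 ± 129 normalized counts per kilobase, and these neighbours in the order did not differ beyond their SD. The lowest were Aplnr at 33.3 ± 7.94, Prnd at 12.6 ± 3.14 and Myct1 at 9.95 ± 1.58 normalized counts per kilobase. Myct1 and Prnd were also the members with the fewest reads, down to 6 reads in a library for Myct1 and 0 for Prnd, so their values are the least precise. The SD of log2 levels within groups had a median of 0.21 over endothelial members and 0.24 over mural members, against 0.18 over all genes tested. It was widest for Prnd at 0.99 and Aplnr at 0.59, and narrowest for the efflux pump gene Abcb1a at 0.14. Kcnj8 and Abcc9, whose products together form a potassium channel of pericytes, lie 16247 bases apart on chromosome 6. Ly6a and Ly6c1, 45986 bases apart on chromosome 15, belong to a family of like sequences, so how the quantification divided reads between them is uncertain.

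Libraries held 22984556 to 35969254 reads. Summed levels of 8 neuronal markers had arm medians of 203442 to 214058 normalized counts. Of these 8, 1 gene, the tubulin gene Tubb3, rose with lithium in HT mice (0.27 ± 0.07, adjusted p from limma 0.00369) and missed the threshold with the GC trend removed (0.16, adjusted p from limma 0.0666). Olfactory bulb markers were uneven: an index of 10 of them, set to 1 at the mean of all libraries, ran from 0.09 to 4.23, and it was over 2.5 in 6 libraries (HT lithium female 4, HT vehicle males 4 and 5, and WT fluoxetine females 1, 2 and 4). HT lithium female 5 stood apart with 2.70% mitochondrial reads, against 5.15% or more elsewhere. HT vehicle female 1 had a summed level of 53839 over 8 choroid plexus genes, against at most 392 in any other library. Fold changes of all genes also followed the GC content of the longest transcript in some comparisons (Spearman 0.47 over genes for lithium in HT mice, 0.01 for lithium in WT mice).

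In HT mice on lithium, 10 of the 36 members rose against HT vehicle and none fell. They comprised 7 of 26 endothelial genes (Eng, Tie1, Flt1, Slc2a1, Sox17, Cdh5 and Abcb1a) and 3 of 10 mural genes (Myh11, Notch3 and Pdgfrb), by 0.20 to 0.49 on the log2 scale. Over all genes tested in this comparison 20.3% were called, 10.9% higher and 9.43% lower. The median log2 fold change was 0.11 over endothelial members and 0.14 over mural members, against -0.002 over all genes tested. Of the 36, 21 endothelial and 8 mural genes lay above 0. Females alone gave 3 members higher, and males alone 4 higher and 1 lower, where 7.02% and 16.2% of all genes were called. None of the 10 genes passed in both of these fits. Bulk tissue cannot tell more or fewer cells of a type from more or less RNA per cell.

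**Figure D1:**
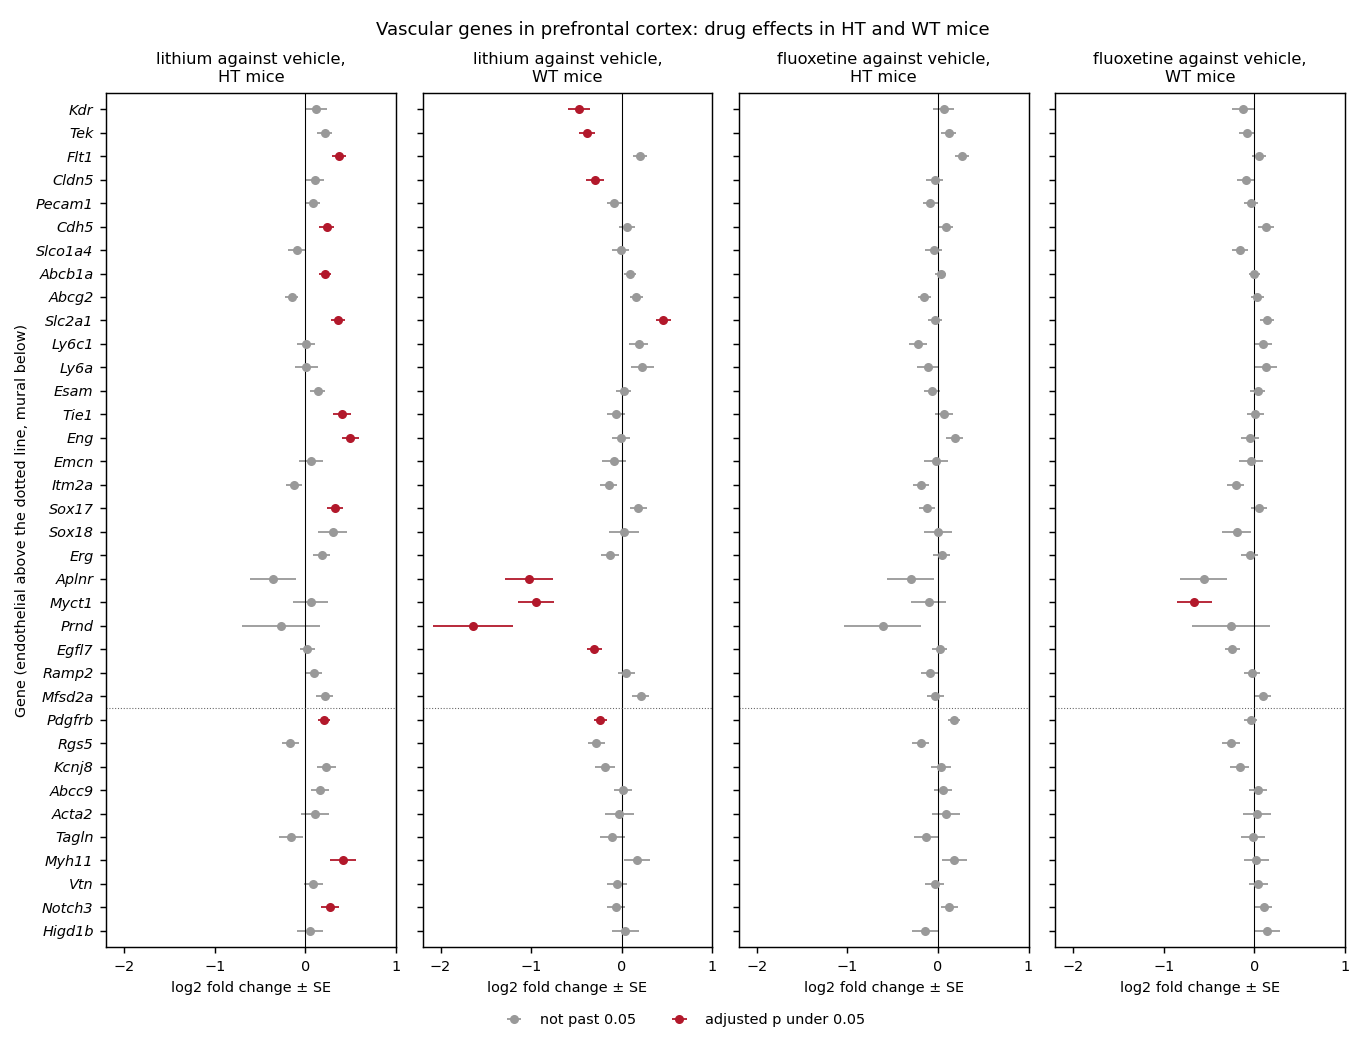
Log2 fold change (x axis, with limma SE as bars) of each of the 36 genes (y axis) for lithium in HT mice, lithium in WT mice, fluoxetine in HT mice and fluoxetine in WT mice, each against vehicle of the same genotype; red marks an adjusted p under 0.05. In HT mice on lithium 10 genes passed, each above 0; in WT mice on lithium 8 passed below 0 and Slc2a1 above it.

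Among receptors, Eng, a co-receptor for TGF-beta family ligands (ENSMUSG00000026814, chr2:32646595-32682669), had a lowest, median and highest level of 706, 1097 and 1177 normalized counts in HT lithium mice, against 546, 763 and 916 in HT vehicle mice. All HT lithium libraries but 1 lay above every HT vehicle library, and the exception was HT lithium female 5. The log2 fold change was 0.49 ± 0.10 (adjusted p from limma 0.00019), with 0.29 in females, which did not pass alone (adjusted p from limma 0.217), and 0.70 in males. Tie1, the partner of the angiopoietin receptor (chr4:118471191-118490061), had 422, 479 and 561 normalized counts in HT lithium mice and 334, 347 and 454 in HT vehicle mice. A single HT vehicle library reached into the HT lithium range, and the log2 fold change was 0.40 ± 0.10 (adjusted p from limma 0.00226). Tie1 did not pass in females alone (adjusted p from limma 0.195). Flt1, a VEGF receptor that acts largely as a decoy (chr5:147561604-147726011), had 1507, 1998 and 2482 normalized counts in HT lithium mice and 1239.8, 1479 and 1744 in HT vehicle mice. Gene coordinates are those of GRCm38 in GENCODE M21. For Flt1, 7 of the 10 HT lithium libraries lay above every HT vehicle library, and the log2 fold change was 0.37 ± 0.08 (adjusted p from limma 0.000293). Flt1 did not pass in males alone (adjusted p from limma 0.0676). Kdr, the main signalling receptor for VEGF, and Tek, the angiopoietin receptor, had log2 fold changes of 0.12 and 0.21 that did not pass.

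Cdh5 encodes VE-cadherin, the adhesion protein of endothelial junctions. It had 486, 589 and 716 normalized counts in HT lithium mice and 446, 506 and 579.9 in HT vehicle mice, with 6 of the 10 HT lithium libraries above every HT vehicle library. Its log2 fold change of 0.23 ± 0.09 (adjusted p from limma 0.0481) lay near the threshold and lost its call in 13 of the 20 fits that left out 1 library (adjusted p up to 0.103). Cdh5 did not pass in females alone or in males alone. Among transporters, Slc2a1, the glucose transporter of the barrier (chr4:119108711-119137983), had 3369, 4120.1 and 5015 normalized counts in HT lithium mice and 2298, 3351 and 4467 in HT vehicle mice. The arms overlapped, with 2 HT lithium libraries above every HT vehicle library and 5 HT vehicle libraries below every HT lithium library, and the log2 fold change was 0.36 ± 0.08 (adjusted p from limma 0.000719). It was 0.52 in HT females and 0.19 in HT males, where it did not pass alone (adjusted p from limma 0.183). Abcb1a, the efflux pump P-glycoprotein, changed by 0.22 ± 0.06 (adjusted p from limma 0.00963) but by 0.44 in females and -0.01 in males. The difference between the sexes did not pass (0.45 ± 0.12, adjusted p from limma 0.113). In that difference 0 members passed by edgeR and 1 by DESeq2, and limma called 0.012% of all genes. An unadjusted p from limma under 0.05 was found for 5 endothelial genes and 1 mural gene, and for 2838 of the 16599 genes tested. Abcb1a was named after its values were seen.

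Sox17, a transcription factor of arterial endothelium (chr1:4490931-4497354), had 195, 232 and 284 normalized counts in HT lithium mice and 163, 184 and 215 in HT vehicle mice. All but 2 of the HT lithium libraries lay above every HT vehicle library, with a log2 fold change of 0.32 ± 0.09 (adjusted p from limma 0.00754). Sox17 did not pass in females alone (adjusted p from limma 0.228). Its relatives in function, Sox18 and Erg, stood at 0.30 and 0.18 and did not pass.

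Of mural genes, Myh11, the smooth muscle myosin, had 252, 417 and 467 normalized counts in HT lithium mice and 173, 312 and 392 in HT vehicle mice, a log2 fold change of 0.41 ± 0.14 (adjusted p from limma 0.0279). The other contractile genes Acta2 and Tagln stood at 0.11 and -0.17 and did not pass. Notch3, the Notch receptor of mural cells, had 585, 656 and 734 normalized counts in HT lithium mice and 460.4, 532 and 615 in HT vehicle mice. Both arms were narrow, 8 libraries of each lay beyond the other's range, and the log2 fold change was 0.27 ± 0.10 (adjusted p from limma 0.0366). Pdgfrb, the PDGF-B receptor that recruits pericytes, had 758, 796 and 957 normalized counts in HT lithium mice and 597, 721 and 833 in HT vehicle mice, a change of 0.20 ± 0.07 (adjusted p from limma 0.0265). Myh11, Notch3 and Pdgfrb each missed the threshold in females alone and in males alone. With the GC trend removed none of the 3 mural genes passed (Myh11 0.37, Notch3 0.14 and Pdgfrb 0.13, adjusted p from limma 0.0684, 0.341 and 0.194), nor did they without the libraries that stand apart (0.46, 0.21 and 0.22, adjusted p from limma 0.0602, 0.154 and 0.0571). In these fits 11.5% and 12.3% of all genes were called, and Eng, Tie1, Flt1, Slc2a1, Sox17 and Abcb1a passed in both. Without the libraries that stand apart 7 members were called, the seventh being Erg at 0.32 (adjusted p from limma 0.0244), and without HT vehicle female 1, the library with choroid plexus RNA, 9 were called.

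**Figure D2:**
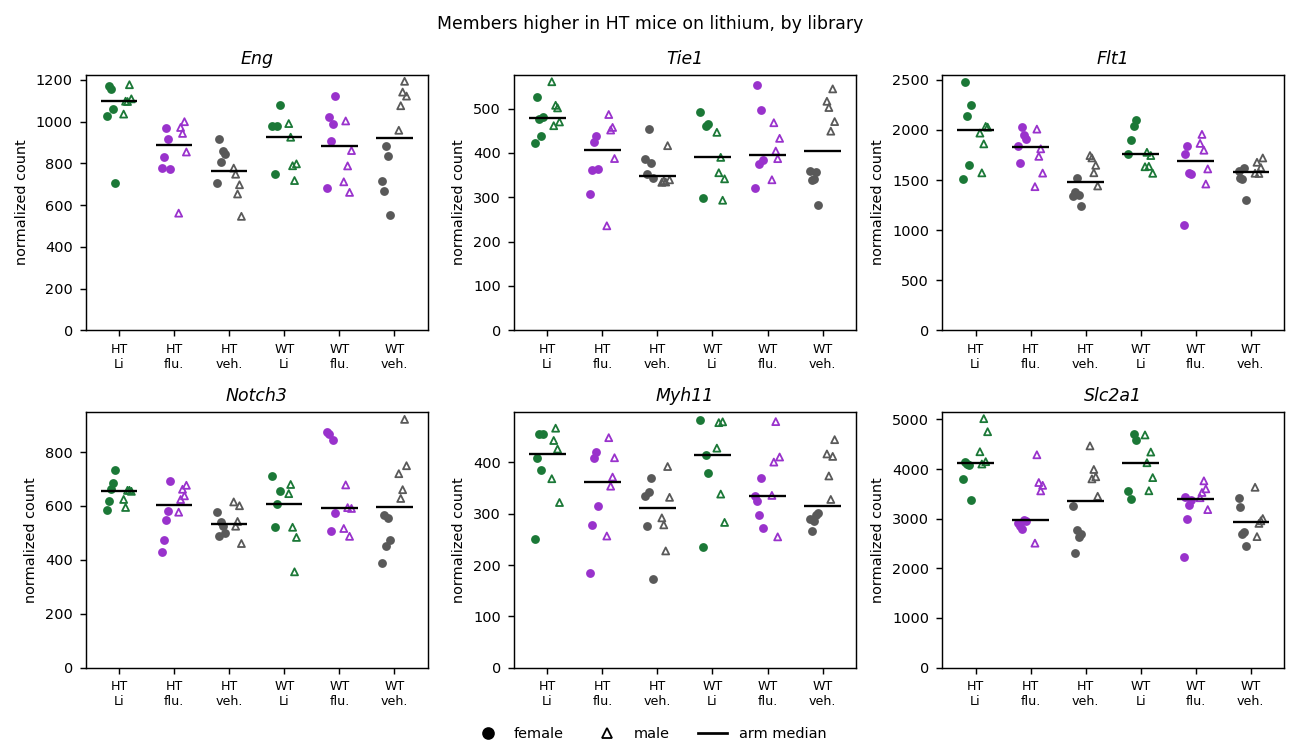
Normalized counts (y axis, from 0) of 6 members called higher with lithium in HT mice, in every library of the 6 arms of genotype and drug (x axis; filled circles females, open triangles males, line the arm median). Eng shows 9 of 10 HT lithium libraries above all HT vehicle libraries, and Slc2a1 is raised with lithium in both genotypes.

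The plot of levels for these 6 genes also shows the other arms. Slc2a1 in WT lithium mice had 3404, 4127 and 4699 normalized counts, against 2453, 2931 and 3632 in WT vehicle mice. Its WT change of 0.46 ± 0.08 (adjusted p from limma 7.09e-05) was 0.48 in females and 0.44 in males, and 8 of the 10 WT vehicle libraries lay below every WT lithium library. Slc2a1 was the single member that rose in WT mice on lithium, and its WT call remained under every alternative fit.

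In WT mice on lithium, 8 members fell against WT vehicle: the endothelial genes Kdr, Tek, Aplnr, Cldn5, Myct1, Prnd and Egfl7 and the mural gene Pdgfrb. Over all genes tested 12.8% were called in this comparison, 7.66% higher and 5.11% lower. The median log2 fold change was -0.006 over endothelial and -0.06 over mural members, against -0.004 over all genes tested, and 12 of 26 endothelial and 3 of 10 mural members lay above 0. Kdr, Tek and Aplnr are receptors of the growth factors VEGF, angiopoietin and apelin, while the receptors Flt1, Tie1 and Eng stood at 0.20, -0.06 and -0.004 and did not pass.

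Kdr (chr5:75932827-75978458) had a lowest, median and highest level of 384, 571 and 827 normalized counts in WT lithium mice, against 585, 867 and 1029.7 in WT vehicle mice. The log2 fold change was -0.47 ± 0.12 (adjusted p from limma 0.00643), and 5 of the 9 WT lithium libraries lay below every WT vehicle library. For Tek (chr4:94739289-94874976) the levels were 299, 403 and 530.1 normalized counts in WT lithium mice and 424, 529 and 637 in WT vehicle mice, a change of -0.39 ± 0.09 (adjusted p from limma 0.00156). The Tek libraries below every WT vehicle library numbered 6 of 9. Aplnr, a G-protein-coupled receptor of sprouting and venous endothelium (chr2:85136225-85139923), had 9.54, 66.1 and 109 normalized counts in WT lithium mice and 73.8, 126 and 162 in WT vehicle mice. It fell by 1.02 on the log2 scale (SE 0.27, adjusted p from limma 0.00681), with 7 of 9 WT lithium libraries below every WT vehicle library. Kdr, Tek and Aplnr stood at -0.83, -0.63 and -1.72 in males. In females they stood at -0.11, -0.14 and -0.32 and did not pass alone (adjusted p from limma 0.803, 0.555 and 0.663).

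Myct1, a small endothelial membrane protein (chr10:5593775-5606904), had 5.62, 12.4 and 24.4 normalized counts in WT lithium mice and 21.5, 29.2 and 33.9 in WT vehicle mice. All WT lithium libraries but 1 lay below every WT vehicle library, the clearest separation among the 8 genes, and the log2 fold change was -0.94 ± 0.20 (adjusted p from limma 0.000864). Prnd encodes doppel, a relative of the prion protein found on brain endothelium of young mice. Its WT lithium values were 33.9, 11.2, 0 and 38.5 normalized counts in females and 24.1, 0, 32.7, 17.9 and 37.4 in males, against 21.9 to 54.1 with a median of 40.8 in WT vehicle mice. The change of -1.64 ± 0.44 (adjusted p from limma 0.00963) depends on WT lithium female 3, a library at 0. Without it the change was -1.06 and did not pass (adjusted p from limma 0.0548), while the call remained without the male library at 0. The change was -0.90 in edgeR (adjusted p 0.056). It also did not pass with only the groups compared, in females alone or in males alone.

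Egfl7, which encodes a protein that endothelial cells secrete into the vessel wall, had 509.9, 648 and 759 normalized counts in WT lithium mice and 623, 791 and 919 in WT vehicle mice. The log2 fold change was -0.30 ± 0.08 (adjusted p from limma 0.0129), with 3 of 9 WT lithium libraries below every WT vehicle library. Cldn5, the claudin of the barrier's tight junctions, changed by -0.30 ± 0.10 (adjusted p from limma 0.0354), and lost its call in 8 of the 19 fits that left out 1 library (adjusted p up to 0.113). The Cldn5 call was also lost in edgeR (-0.28, adjusted p 0.0509), with only the groups compared (adjusted p from limma 0.0556) and with the transcript length trend removed (-0.24, adjusted p from limma 0.123), which also ended that of Egfl7 (-0.25). Cldn5 and Pdgfrb (-0.24 ± 0.07, adjusted p from limma 0.0196) had opposite signs in the sexes. Cldn5 stood at 0.06 in females and -0.65 in males, and Pdgfrb at 0.11 in females and -0.58 in males. Other members of the junctions and transporters, among them Pecam1, Esam, Abcg2, Slco1a4 and Mfsd2a, did not pass with lithium in either genotype.

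**Figure D3:**
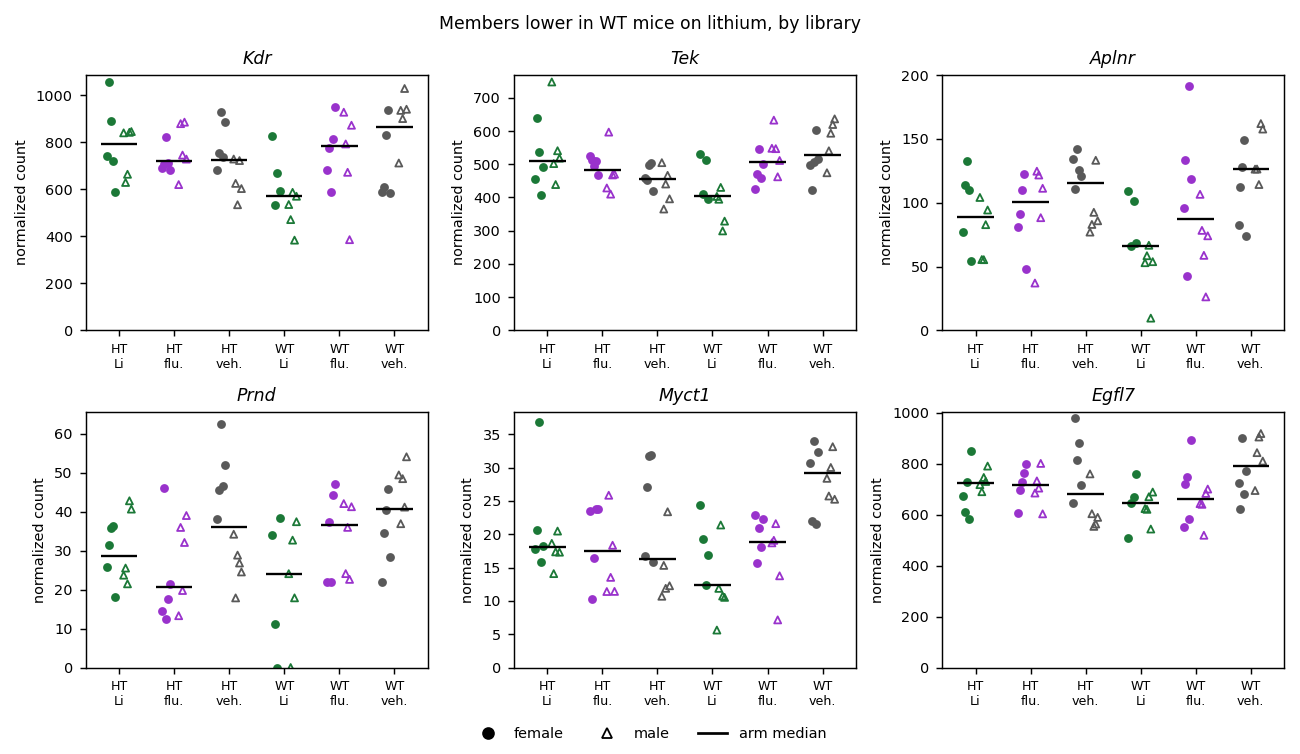
Normalized counts (y axis, from 0) of 6 members called lower with lithium in WT mice, in every library of the 6 arms (x axis; filled circles females, open triangles males, line the arm median). Myct1 has 8 of 9 WT lithium libraries below all WT vehicle libraries, and Prnd has 2 WT lithium libraries at 0.

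The decreases were also read in each sex. In males alone the same 8 genes were all below 0 and 7 of them passed, Prnd being the exception, and Notch3 passed as well (-0.48, adjusted p from limma 0.0266), in a fit that called 2.97% of all genes. In females alone, where 3.34% of all genes were called, no member was called lower, with changes from -1.58 for Prnd to 0.11 for Pdgfrb. WT vehicle males had high levels of several of these genes. Pdgfrb had 615 to 750.0 normalized counts in WT lithium males and 890.0 to 1252 in WT vehicle males, without overlap, but 695 to 873 in WT lithium females and 639 to 861 in WT vehicle females. For Cldn5 the mean was 842 ± 204 normalized counts in WT lithium males (SD, n = 5) and 1293 ± 101 in WT vehicle males (SD, n = 5), against 1033 ± 185 in WT lithium females (SD, n = 4) and 984 ± 76.4 in WT vehicle females (SD, n = 5). The test of the difference itself called 0 members by limma, 0 by edgeR and 4 by DESeq2, and limma called 0% of all genes tested. An unadjusted p from limma under 0.05 was found for 10 endothelial and 3 mural members, and for 1467 of the 16599 genes tested. The smallest adjusted p from limma in this difference was 0.0853, for Pdgfrb (female minus male 0.69 ± 0.14). Of the members, 25 of 26 endothelial and 10 of 10 mural genes lay above 0 in this difference, against 69.3% of all genes tested with a GC content of 50% or more and 36.2% of those below it.

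Whether lithium acted differently in the genotypes was tested as the lithium effect in HT minus that in WT. No member passed by limma, 1 passed by edgeR (Tek) and 2 by DESeq2 (Tek and Pdgfrb), and limma called 0.00602% of all genes tested. An unadjusted p from limma under 0.05 was found for 10 endothelial and 3 mural members, and for 2020 of the 16599 genes tested. Tek came closest, at 0.60 ± 0.12 (adjusted p from limma 0.0505), from effects of 0.21 in HT and -0.39 in WT mice. Pdgfrb, which passed upward in HT and downward in WT mice, differed by 0.44 ± 0.10 (adjusted p from limma 0.092). Myct1 stood at 0.06 in HT and -0.94 in WT mice, Eng differed by 0.50 ± 0.14 and Kdr by 0.58 ± 0.17, with adjusted p from limma for the differences of 0.181, 0.182 and 0.197. Tek passed with the GC trend removed (0.64, adjusted p from limma 0.0202) and without the libraries that stand apart (0.65, adjusted p from limma 0.0349). No other member passed in these 2 fits. This difference followed GC content over all genes tested (Spearman 0.50). It lay above 0 for 69.3% of genes with a GC content of 50% or more and 30% of those below it.

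The pattern of calls was read beside GC content because the fold changes of all genes followed it. In HT mice on lithium, 9 of the 22 members with a GC content of 50% or more passed upward and 20 lay above 0, while 1 of the 14 members below 50% passed and 9 lay above 0. Over all genes tested, 19.4% of those with 50% or more passed upward and 68.7% lay above 0, against 3.32% and 32.4% of those below. In WT mice on lithium, 4 of the 22 members with 50% or more passed downward, as did 4 of the 14 below 50%. Over all genes tested 5.11% were called lower there, a share that was not split by GC content. With the GC trend of each library removed, 7 members were called higher in HT mice, among them Tek (0.25, adjusted p from limma 0.0396) and not Cdh5, Myh11, Notch3 or Pdgfrb, and in WT mice the same 9 genes passed and Rgs5 as well (-0.28, adjusted p from limma 0.0144).

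**Figure D4:**
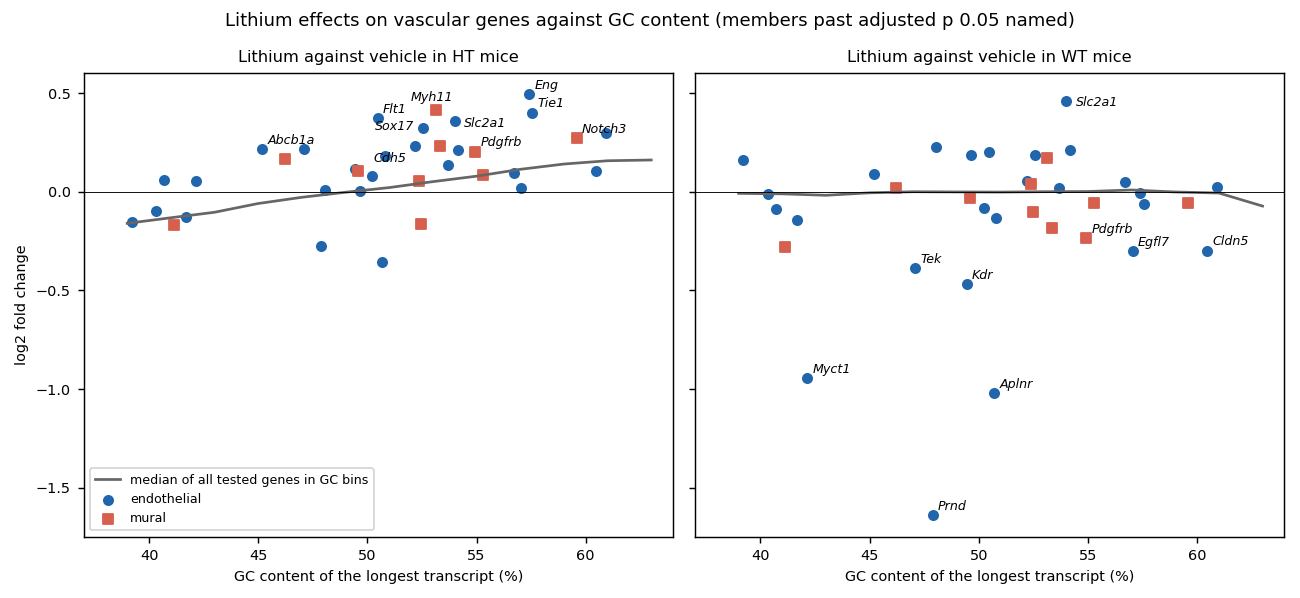
Log2 fold change with lithium (y axis) against the GC content of each member's longest transcript in percent (x axis), for HT mice on the left and WT mice on the right; blue circles are endothelial genes, red squares mural genes, and the grey line is the median of all tested genes in bins of GC content. The grey line climbs from -0.16 to 0.16 in HT mice and stays near 0 in WT mice up to its last bin, and most called HT members lie at 50% GC or more.

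Fluoxetine moved few members. In HT mice none passed by limma or edgeR and 1 by DESeq2 (Flt1), in a comparison where 0.277% of all genes tested were called, 0.0723% lower. An unadjusted p from limma under 0.05 was found for 4 endothelial genes and 1 mural gene, and for 1933 of the 16599 genes tested. Flt1 was nearest, with 1434, 1828 and 2028 normalized counts in HT fluoxetine mice, against 1239.8, 1479 and 1744 in HT vehicle mice. Its log2 fold change was 0.26 ± 0.08 (adjusted p from limma 0.0954), with 0.46 in females and 0.07 in males.

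In WT mice 1 member fell with fluoxetine, Myct1, where 5.66% of all genes tested were called, 3.54% higher and 2.11% lower. It had 7.15, 18.9 and 22.9 normalized counts in WT fluoxetine mice, against 21.5, 29.2 and 33.9 in WT vehicle mice. Of the WT fluoxetine libraries 7 of 10 lay below every WT vehicle library, and the log2 fold change was -0.66 ± 0.19 (adjusted p from limma 0.0299). Myct1 was thus low with each drug in WT mice, in comparisons that share the WT vehicle libraries; its levels in HT mice were 14.1 to 36.8 normalized counts with lithium, 10.4 to 25.8 with fluoxetine and 10.7 to 31.9 with vehicle. The fluoxetine call was lost without WT fluoxetine female 2, WT fluoxetine male 4 or WT vehicle female 3 (-0.54 to -0.63, adjusted p from limma 0.0626 to 0.0822) and without the libraries that stand apart (-0.60, adjusted p from limma 0.074). That call was also lost with quantile normalization, in females alone and in males alone (adjusted p from limma up to 0.285). In males alone 4 other members fell, where 2.42% of all genes were called. For the fluoxetine effect in HT minus that in WT no member passed by limma, edgeR or DESeq2, and 0% of all genes were called. Here 3 endothelial genes and 1 mural gene had an unadjusted p from limma under 0.05, as did 844 of the 16599 genes tested.

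HT and WT mice were compared under each treatment. Under vehicle no member passed by limma, edgeR or DESeq2, and limma called 0% of all genes tested. An unadjusted p from limma under 0.05 was found for 6 endothelial genes and 1 mural gene, and for 1074 of the 16599 genes tested. Pdgfrb had the smallest p of the 36, at -0.28 ± 0.07 (adjusted p from limma 0.335), which was -0.004 in females and -0.55 in males. In males alone, where 0.819% of all genes were called, Eng, Egfl7 and Pdgfrb passed (-0.69, -0.44 and -0.55), all against the same WT vehicle males whose high levels are given above. Eng, Egfl7 and Pdgfrb have a GC content of 57.4%, 57.1% and 54.9%. With the sexes averaged, fold changes of all genes under vehicle followed GC content (Spearman -0.42). Those above 0 were 30.3% of genes with a GC content of 50% or more and 64.1% of those below it. The part of GC content in the male calls was not tested. The female minus male difference of Eng, 0.88 ± 0.19, did not pass (adjusted p from limma 0.0975). In that difference 0.00602% of all genes were called, and 1 member passed by DESeq2 and none by edgeR. There 7 endothelial and 2 mural members had an unadjusted p from limma under 0.05, as did 1660 of the 16599 genes tested. It lay above 0 for 72.1% of all genes with a GC content of 50% or more and 30.9% of those below it. Under fluoxetine no member reached an unadjusted p from limma under 0.05, which 1883 of the 16599 genes tested did. No member passed by edgeR or DESeq2 there, and limma called 0% of all genes. Under lithium none passed by limma or edgeR and 1 by DESeq2 (Tek), and limma called 0% of all genes. An unadjusted p from limma under 0.05 was found under lithium for 8 endothelial and 2 mural members, and for 1839 of the 16599 genes tested. There 23 of 26 endothelial and 9 of 10 mural genes lay above 0 in HT mice, Tek at 0.34 ± 0.09 (adjusted p from limma 0.137) and Kdr at 0.43 ± 0.12 (adjusted p from limma 0.17). Over all genes tested, 63.0% of those with a GC content of 50% or more and 34.4% of those below it lay above 0 in the same comparison.

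The fluoxetine effect in WT mice differed between females and males for 6 members, all with the female effect above the male one: Cldn5, Tie1, Eng, Sox18, Pdgfrb and Notch3. Over all genes tested 8.66% were called in this difference, 3.58% with the female effect above and 5.08% with it below. For Pdgfrb the mean was 912 ± 122 normalized counts in WT fluoxetine females and 735 ± 82.8 in WT vehicle females, against 781 ± 79.7 in WT fluoxetine males and 1027 ± 144 in WT vehicle males (SD, n = 5 each). The difference of these effects was 0.70 ± 0.14 (adjusted p from limma 0.00489). Notch3 averaged 734 ± 178 normalized counts in WT fluoxetine females and 487 ± 74.1 in WT vehicle females, against 573 ± 74.8 in WT fluoxetine males and 736 ± 114 in WT vehicle males (SD, n = 5 each), a difference of 0.92 ± 0.19 (adjusted p from limma 0.00489). In both genes the vehicle groups of the sexes did not overlap, males being higher.

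Cldn5 had 868 to 1387 normalized counts in WT fluoxetine females and 887 to 1076 in WT vehicle females, against 762 to 1012 in WT fluoxetine males and 1196 to 1453 in WT vehicle males, a difference of 0.85 ± 0.19 (adjusted p from limma 0.00753). In males the ranges did not overlap, and in females 4 of 5 fluoxetine libraries lay above every vehicle library. Eng, Tie1 and Sox18, the last a transcription factor gene, differed by 0.83 ± 0.19, 0.61 ± 0.20 and 0.99 ± 0.32 (adjusted p from limma 0.00804, 0.0399 and 0.0421). The 3 WT fluoxetine females with a high olfactory bulb index are in this difference: without the libraries that stand apart none of the 6 passed (0.47 to 1.25, adjusted p from limma 0.065 to 0.25), which leaves 2 fluoxetine females, and none passed with the GC trend removed (0.38 to 0.67, adjusted p from limma 0.10 to 0.31). Over all genes tested 8.66% were called in this difference, against 0.00602% (1 gene) with the GC trend removed and 0.012% (2 genes) without the libraries that stand apart, so the loss was not particular to these 6. All 6 genes have a GC content above 50%. No member passed in the corresponding test in HT mice by limma, edgeR or DESeq2 (0% of all genes called). Of the members 3 endothelial ones had an unadjusted p from limma under 0.05 there, as did 881 of the 16599 genes tested.

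**Figure D5:**
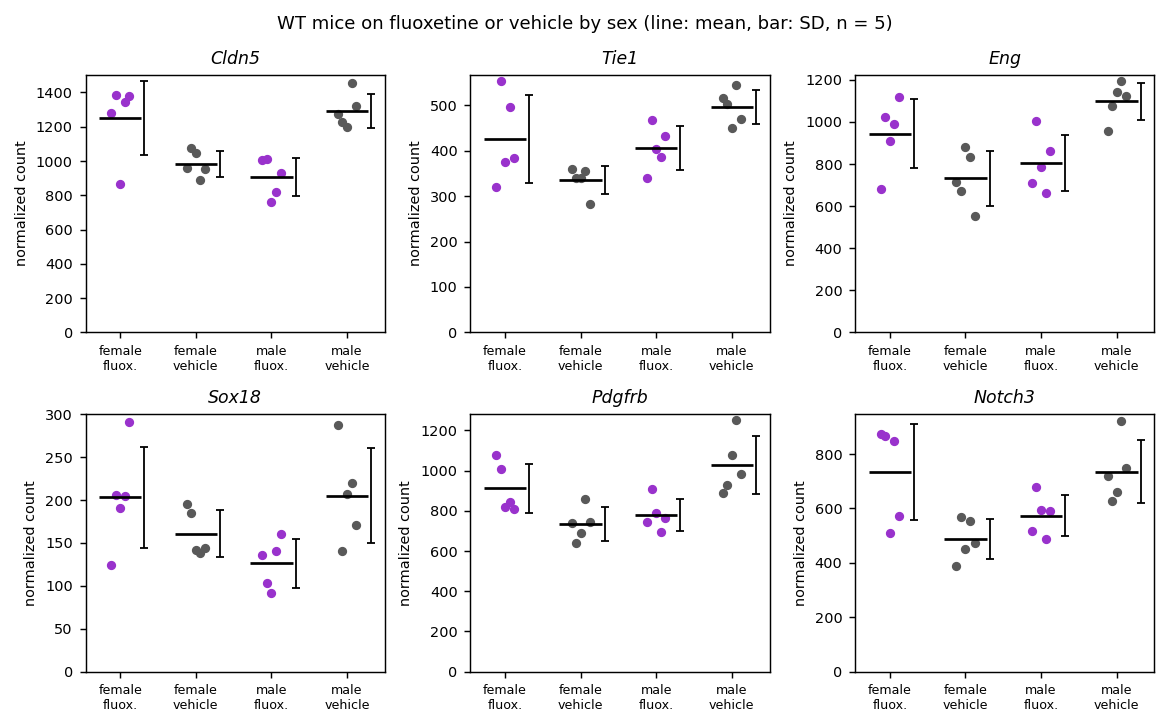
Normalized counts (y axis, from 0) of the 6 members whose fluoxetine effect differed between the sexes in WT mice, per library in fluoxetine and vehicle groups of females and then males (x axis; line the mean, bar the SD, n = 5). Fluoxetine females lie above vehicle females on average and fluoxetine males below vehicle males, and vehicle males are higher than vehicle females on average in all 6 genes.

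The ligands and partners of these receptors were read from a list of 29 tested vascular signalling genes that are not members. In HT mice on lithium 10 rose and 1 fell, where 10.9% of all genes tested were called higher and 9.43% lower. Pdgfb, the ligand of Pdgfrb, rose by 0.36 ± 0.08 (adjusted p from limma 0.000663), with 892 to 1254 normalized counts in HT lithium mice and 626 to 919 in HT vehicle mice. Acvrl1, the kinase receptor that pairs with Eng, rose by 0.36 ± 0.08 (adjusted p from limma 0.00102), and the endothelial Notch receptor Notch4 by 0.35 ± 0.08 (adjusted p from limma 0.00194). Without the libraries that stand apart 10 of the list rose and none fell, where 12.3% of all genes were called in either direction. Pdgfb then stood at 0.25, Acvrl1 at 0.40 and Notch4 at 0.38. With the GC trend removed 5 rose and none fell, where 11.5% of all genes were called in either direction. Pdgfb then stood at 0.22, Acvrl1 at 0.26 and Notch4 at 0.21, and Notch4 did not pass (adjusted p from limma 0.0928).

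In WT mice on lithium 3 genes of the list rose and 1 fell, where 7.66% of all genes were called higher and 5.11% lower: Pdgfb (0.40 ± 0.08), Notch4 (0.40 ± 0.09) and the VEGF co-receptor Nrp1 (0.28 ± 0.07) were higher, and the lymphatic growth factor gene Vegfc was lower (-0.34 ± 0.10), with adjusted p from limma of 0.000413, 0.00145, 0.00652 and 0.0202. These 4 calls are near the share over all genes. Pdgfb was higher with lithium in both genotypes, while its receptor gene Pdgfrb was called higher in HT and lower in WT mice. The difference of the Pdgfrb effects between genotypes did not pass by limma. Its HT call was lost with the GC trend removed and without the libraries that stand apart, and its WT change was above 0 in females. With fluoxetine in WT mice Nrp1 (0.34 ± 0.07, adjusted p from limma 0.00256) and Vegfa, which encodes VEGF-A (0.26 ± 0.06, adjusted p from limma 0.0059), rose and none fell, where 3.54% of all genes were called higher. Both passed without the libraries that stand apart (0.32 and 0.31). No gene of the list passed with fluoxetine in HT mice by limma. In that comparison 4 of the list had an unadjusted p from limma under 0.05, as did 1933 of the 16599 genes tested.

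Of 28 further barrier and transport genes, 4 rose and 1 fell in HT mice on lithium, and 3 rose and 2 fell in WT mice on lithium. Over all genes 20.3% were called in the HT and 12.8% in the WT comparison, so neither count stands far from the share over all genes. In HT mice the amino acid transporter subunit gene Slc3a2 rose by 0.18 ± 0.05 and the tight junction scaffold gene Tjp1 by 0.15 ± 0.04, while the transferrin receptor gene Tfrc fell by 0.33 on the log2 scale (SE 0.09), with adjusted p from limma of 0.00551, 0.00903 and 0.00567. Tjp1 stood at 0.29 in HT females and 0.01 in HT males. Without the libraries that stand apart Tjp1 alone of the list passed in HT mice (0.18), where 12.3% of all genes were called. Slc3a2 and Tfrc did not pass in that fit (0.12 and -0.21, adjusted p from limma 0.134 and 0.109). In WT mice the drug efflux pump gene Abcc4 rose by 0.41 ± 0.08, Tjp1 by 0.21 ± 0.04 and the insulin receptor gene Insr by 0.16 ± 0.04 (adjusted p from limma 0.00018, 0.000995 and 0.00755). The lactate transporter gene Slc16a1 fell by 0.32 (SE 0.09, adjusted p from limma 0.0174), and the amino acid transporter gene Slc38a5 by 0.59 (SE 0.17, adjusted p from limma 0.0143). Slc38a5 stood at 0.04 in females and -1.21 in males. With fluoxetine in WT mice Tjp1 (0.14 ± 0.04) and Foxf2, a pericyte transcription factor gene (-0.48 ± 0.11), passed, with adjusted p from limma of 0.047 and 0.00638, where 5.66% of all genes were called. Foxf2 stood at -0.10 in females and -0.87 in males, and both genes passed without the libraries that stand apart (0.17 and -0.49).

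Of 16 further mural genes, Cspg4, the NG2 proteoglycan that pericytes share with oligodendrocyte precursors, and Lamc3, a laminin chain of the vessel wall, rose in HT mice on lithium (0.48 ± 0.10 and 0.43 ± 0.10, adjusted p from limma 0.000426 and 0.00168), and none fell. Both passed without the libraries that stand apart (0.42 and 0.50) and with the GC trend removed (0.35 and 0.31). In WT mice on lithium Lamc3 rose by 0.31 ± 0.10 and the growth factor gene Ptn fell by 0.27 (SE 0.07), with adjusted p from limma of 0.0395 and 0.00827. Ptn had a median of 13680 normalized counts in WT vehicle mice, against 570 for Cspg4, and which cells its RNA came from was not tested. Lamc3 stood at 0.54 in WT females and 0.09 in WT males. The mural list thus had 2 calls in each lithium comparison, where 20.3% of all genes were called in HT and 12.8% in WT mice. Of 15 genes that mark arterial, capillary or venous zones, 3 rose and 2 fell in HT mice on lithium, 4 fell in WT mice on lithium and 2 fell with fluoxetine in WT mice, where 9.43%, 5.11% and 2.11% of all genes were called lower. Without the libraries that stand apart 2 rose and none fell in HT mice, and the counts in WT mice were again 4 and 2. The genes called lower with lithium in WT mice included Slc38a5, Vegfc and Gkn3. These lists overlap: both HT falls (Tfrc and Vegfc) and the WT falls of Slc38a5 and Vegfc were already counted in the barrier or signalling list. In HT mice the calls included Sema3g, an arterial semaphorin gene (0.38 ± 0.09, adjusted p from limma 0.0017), which passed without the libraries that stand apart (0.40), and Ackr1, a venous chemokine receptor gene (0.26 ± 0.08, adjusted p from limma 0.0101), which did not (0.21, adjusted p from limma 0.0739). With fluoxetine in WT mice the arterial ephrin gene Efnb2 fell by 0.21 (SE 0.06, adjusted p from limma 0.0219). Its median in WT vehicle mice was 2402 normalized counts, against 69.7 for Gkn3, and which cells its RNA came from was not tested. The arterial gene Gkn3 fell with both drugs in WT mice, in comparisons that share the vehicle libraries (-0.70 ± 0.22 with lithium, -0.66 ± 0.21 with fluoxetine, adjusted p from limma 0.0227 and 0.0491), and its fluoxetine call was lost without the libraries that stand apart (-0.63, adjusted p from limma 0.0722).

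Markers of cells that border vessels moved in part with these results. With lithium in HT mice, 4 of 15 microglia markers and 4 of 11 astrocyte markers rose and none fell, where 10.9% of all genes were called higher and 9.43% lower. Without the libraries that stand apart these counts were 3 and 4, and with the GC trend removed 2 and 3. Over all genes 12.3% and 11.5% were called in these fits, in either direction. With lithium in WT mice, none of the microglia markers rose and 2 fell, and 1 astrocyte marker rose and 1 fell, where 7.66% of all genes were called higher and 5.11% lower. The WT microglia falls numbered 5 without the libraries that stand apart and 3 with the GC trend removed, and none rose. Astrocyte markers in WT mice were 2 higher and 1 lower in both fits. These fits called 17.6% and 14.96% of all genes in WT mice, in either direction. In HT mice Csf1r, the survival receptor of microglia, rose by 0.35 ± 0.08 (adjusted p from limma 0.000869), the complement gene C1qa by 0.22 ± 0.06 and Tmem119 by 0.31 ± 0.09. Of the astrocyte genes Fgfr3, a growth factor receptor, rose by 0.28 ± 0.07 (adjusted p from limma 0.00135), the glycolytic enzyme gene Aldoc by 0.30 ± 0.07 and the connexin gene Gjb6 by 0.25 ± 0.08. Fgfr3 stood at 0.49 in HT females and 0.08 in HT males, Gjb6 at 0.44 and 0.06, and Aldoc at 0.30 in each sex. C1qa missed the threshold with the GC trend removed and without the libraries that stand apart (adjusted p from limma 0.334 and 0.12). In WT mice on lithium the microglial chemokine receptor gene Cx3cr1 fell by 0.26 on the log2 scale, Gjb6 rose by 0.43 ± 0.08 and the calcium-binding protein gene S100b fell by 0.29. Cx3cr1 stood at -0.04 in WT females and -0.48 in WT males, Gjb6 at 0.32 and 0.53, and S100b at -0.29 and -0.30. Summed microglia levels ran from 13754 to 17045 normalized counts in HT lithium mice, 11291 to 16764 in HT vehicle mice, 11664 to 14713 in WT lithium mice and 12666 to 16303 in WT vehicle mice. Summed astrocyte levels ran from 141819 to 196363 in HT lithium mice, 128641 to 170460 in HT vehicle mice, 143197 to 167244 in WT lithium mice and 137915 to 159251 in WT vehicle mice. The 10 perivascular fibroblast, 5 red blood cell, 7 tested choroid plexus and 10 olfactory bulb markers had none that passed in any of the 4 drug comparisons by limma; without the libraries that stand apart 5 of the bulb markers were called lower with fluoxetine in WT mice. All 10 bulb markers lay below 0 in each, at medians of -0.95 for lithium in HT, -0.26 for lithium in WT, -0.58 for fluoxetine in HT and -0.68 for fluoxetine in WT mice. The 5 red blood cell genes, which report blood left in the vessels, lay below 0 with fluoxetine in both genotypes (medians -0.53 in HT and -0.51 in WT mice). Of 6 perivascular macrophage markers 1, Cd163, rose in WT mice on lithium (0.65 ± 0.19, adjusted p from limma 0.0189). The part of these cells in the vascular results was not tested. Summed over genes, the endothelial members ran from 18209.5 to 24607 normalized counts in HT lithium mice and 17082 to 21386 in HT vehicle mice, and from 18129 to 22645 in WT lithium mice and 15810.3 to 20820.3 in WT vehicle mice, overlapping in both genotypes. The mural sums ran from 7341 to 10689 and 7787 to 9885 in HT lithium and HT vehicle mice, and from 6891 to 9556 and 6682 to 9939.6 in WT lithium and WT vehicle mice.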

How the data were processed

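Messenger RNA of the prefrontal cortex of 59 mice was sequenced with a stranded mRNA kit, per the labels' protocols. The submitters' processing notes name Salmon 0.11.2, DESeq2 1.19.11, R 3.6.0 and GRCm38, without their roles. What the authors deposited is a signal, a count per gene after normalization, which equals a whole number of reads divided by a library's size factor: 100.0% of values came out whole within 0.001 (largest deviation 3.5e-09), with size factors of 0.783 to 1.245. Filters before deposit are not given in the sources used here. Of 18088 gene IDs, 18077 had a GENCODE symbol with GRCm38 coordinates, 40 shared a symbol with another, and 0 columns were unused. GC content was known for 99.9% of genes.

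Each value plus 1 was put on a log2 scale, which understates changes of low genes. Genes passed with a mean normalized count of 10 or more, which left 16599. In limma 3.58.1 (R 4.3.3; trend, robust) the 12 groups each had their own mean, which left 47 degrees of freedom. Tests were two-sided, with p-values adjusted after Benjamini and Hochberg over all genes tested, separately for the 14 comparisons; 0.05 was the threshold. Arms average the sexes. SE is limma's and SD is between libraries. The fits were repeated with a pseudocount of 0.5 or 5, without the filter, with quantile normalization, the replicate number as a block, only the groups compared, each sex alone, each library left out, an olfactory bulb covariate, a GC trend removed (loess, span 0.5), edgeR 4.0.16 and DESeq2 1.42.0 on recovered reads, and, added after seeing the data, a transcript length trend removed and a fit without the 7 libraries that stand apart (bulb index over 2.5 or under 5% mitochondrial reads). The other gene lists were refitted with the GC trend removed and without those 7 libraries, also added after seeing the data. The steps were tested on simulated counts. Apela, Selp and Kcne2, from the lists of other genes, were not analysed here.

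Members and lists were chosen with earlier results of these data known, so their counts are descriptions beside the share of all genes called. Members named in detail passed in at least 1 comparison of arms with the same sign in both sexes; of the other lists, genes were named from the up to 3 with the smallest p in a list and comparison, and Abcb1a in HT mice and Cldn5 and Pdgfrb in WT mice were added after their values were seen, for opposite signs in the sexes. Genes of the other lists that make up counts of 5 or fewer, such as Slc16a1, were also named after their values were seen. All 59 libraries enter the main values.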

Additional observations from a re-analysis of the deposited data

Results flagged for a closer look

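Single libraries lay far from the rest of their arm or group, by Dixon's criterion, in 13 of 240 sets of values tested, and chance gives about 1 in 20. HT lithium female 5, the library with 2.70% mitochondrial reads, accounted for 3 of them, with 706 normalized counts of Eng, 192 of Ly6a and 574 of Mfsd2a, all low. High values were Slco1a4 at 2287 normalized counts in HT lithium female 2 and 2254 in WT lithium male 4, Myct1 at 36.8 in HT lithium female 3, Abcc9 at 427 in HT fluoxetine male 2 and Pecam1 at 791 in WT fluoxetine male 2. Low values were Eng at 562 normalized counts in HT fluoxetine male 1, Slc2a1 at 2232 in WT fluoxetine female 1, Cldn5 at 868 in WT fluoxetine female 3, and Flt1 at 1304 and Tie1 at 283 in WT vehicle female 5.

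The fluoxetine effect in WT mice differed between females and males, with limma's test of the difference past an adjusted p of 0.05, for Cldn5 (female minus male 0.85), Tie1 (0.61), Eng (0.83), Sox18 (0.99), Pdgfrb (0.70) and Notch3 (0.92) on the log2 scale. WT vehicle males were higher than WT vehicle females on average in all 6.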

How the results depend on the processing

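Values are members called higher and lower. For lithium in HT mice (10 and 0) females alone gave 3 and males alone 5, of which 4 were higher and Abcg2 was lower. For lithium in WT mice (1 and 8) females alone gave 1 higher. For fluoxetine in WT mice (1 lower) quantile normalization and the fit without the libraries that stand apart gave 0, the GC trend and the bulb covariate 2 lower, and males alone 4 lower. DESeq2 gave 1 for fluoxetine in HT mice, for HT against WT under lithium, for the female minus male lithium effect in HT mice, and for the female minus male HT-WT difference under vehicle. HT against WT gave 3 lower under vehicle in males alone, and 1 higher under lithium without the libraries that stand apart. The lithium effect in HT minus WT (0) gave 1 with quantile normalization, the GC trend or the length trend removed, the libraries that stand apart left out, or edgeR, and 2 with the bulb covariate or DESeq2. The female minus male lithium effect in WT mice (0) gave 2 with the bulb covariate, 3 without the libraries that stand apart and 4 with DESeq2, and the fluoxetine one (6) gave 0 with the GC trend removed and 0 without the libraries that stand apart, which removed 3 of 5 WT fluoxetine females. The cause was not tested. Signs reversed for Abcb1a in HT males (-0.0066), and for Cldn5 (0.0553) and Pdgfrb (0.1077) in WT females on lithium.

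Leaving out each library gave 7 to 10 members for lithium in HT mice, 7 to 10 for lithium in WT mice, 0 to 2 for fluoxetine in WT mice, 0 to 1 for the lithium effect in HT minus WT, 0 to 1 for the female minus male lithium effect in HT mice, 0 to 3 for that in WT mice, 4 to 6 for the female minus male fluoxetine effect in WT mice, 0 to 1 for the female minus male HT-WT difference under vehicle, and 0 elsewhere. For single genes, 444 of 511 such values kept sign and call and 67 lost the call, most often for Cdh5 (13 of 20), Sox18 (12 of 20) and Tie1 by sex (10 of 20). Calls in the lithium comparisons that hung on few libraries were Egfl7 in WT mice without WT lithium female 1 (-0.25, adjusted p from limma 0.0505), Pdgfrb in WT mice without WT lithium female 3 or WT vehicle male 4 (-0.20 to -0.21) and in HT mice without HT lithium female 2, HT lithium male 5, HT vehicle female 4 or HT vehicle male 3 (0.18 to 0.19), and Myh11 without HT lithium female 3 or 5, HT lithium male 3, HT vehicle female 5 or HT vehicle male 3 (0.32 to 0.39). Notch3 in HT mice lost its call in 8 of 20.

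Replicate numbers did not pair the libraries: 16 of 68 same-numbered pairs had correlated deviations over 0.1 (range -0.412 to 0.52). With the replicate block, lithium in HT mice gave 10 members and lithium in WT mice 10 (1 higher, 9 lower). Depth limits Prnd and Myct1, which had as few as 0 and 6 reads.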
